A study of Mus musculus with 76 samples.

Results

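*Saa3*, *Lcn2*, *Hp*, *C3*, *Irak3*, *Socs3* and *Ptx3* were followed as acute-phase and innate defense genes across 38 whole mouse tumors in 7 groups. The 7 genes were picked from 55536 genes in the count table because *Saa3* was higher with either form of catalase in 4T1 tumors in these same data. The comparisons behind that choice are therefore described below without a test. All mice were female Balb/c, young adult, and carried a subcutaneous flank tumor of CT26, a colorectal carcinoma line, or of 4T1, a mammary carcinoma line. CAT-ABP is recombinant catalase joined to a peptide that binds alum, the aluminum hydroxide particles used in vaccines, so that the enzyme stays in the injected tumor. Every tumor received 100 µg alum on day 6, alone or with 20 µg CAT-ABP, and was collected on day 8. These days are those of the labels, and the study's methods give other days. CT26 gave 6 tumors with CAT-ABP and 5 with alum alone, and parental 4T1 likewise gave 6 and 5. The engineered 4T1-CAT line gave 5 tumors with CAT-ABP and 5 with alum alone, and the engineered 4T1-control line gave 6, with alum alone. 4T1-CAT cells made human catalase and GFP under a doxycycline-inducible promoter carried by lentivirus, and 4T1-control cells made GFP alone. Mice with either engineered line ate doxycycline from day 4, and mice with parental 4T1 or CT26 tumors did not, so the engineering and the diet cannot be told apart in comparisons with parental 4T1. Both engineered lines were GFP-sorted populations. The human transgene was not measured, since the table holds mouse genes.

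The acute-phase response is the rapid change in secreted proteins that follows infection or injury. Cytokines of the interleukin-6 and interleukin-1 families act through STAT3, NF-κB and C/EBP transcription factors on hepatocytes, and in tissues also on macrophages, fibroblasts, adipocytes and epithelial cells. *Saa3* encodes a serum amyloid A protein made mainly outside the liver, *Hp* encodes haptoglobin, which binds free hemoglobin, and *Lcn2* encodes lipocalin-2, which binds bacterial siderophores. *C3* encodes the central complement component and *Ptx3* a long pentraxin that opsonizes microbes. *Irak3* and *Socs3* encode feedback inhibitors of Toll-like receptor signaling and of JAK-STAT signaling. Levels are given as CPM, counts scaled to library size, and are not compared between genes.

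On GRCm38, with GENCODE M21 annotation, all 7 were protein-coding genes. *Saa3* (ENSMUSG00000040026) lies at chr7:46711998-46715700 on the minus strand, *Lcn2* (ENSMUSG00000026822) at chr2:32384633-32388252, minus, and *Hp* (ENSMUSG00000031722) at chr8:109575128-109579172, minus. *C3* (ENSMUSG00000024164) lies at chr17:57203970-57228136, minus, *Irak3* (ENSMUSG00000020227) at chr10:120141648-120202130, minus, *Socs3* (ENSMUSG00000053113) at chr11:117966079-117970047, minus, and *Ptx3* (ENSMUSG00000027832) at chr3:66219910-66225805, plus. The paralogs of *Saa3* were scarce, with at most 4.39 CPM of *Saa1*, 1.71 CPM of *Saa2* and 0.390 CPM of *Saa4* in any tumor.

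The tumors held 493086 to 9077683 counts (median 4827512), each summed from 2 technical libraries. *Irak3*, *Socs3* and *Ptx3* rested on few counts, with medians of 11, 15 and 25 per tumor, against 453 for *Saa3*, 384 for *C3*, 345 for *Hp* and 87 for *Lcn2*. Tumor 4 of 4T1 with CAT-ABP and tumor 2 of 4T1-control had under 0.25 of the median depth. In 4T1-CAT with alum, a library of tumor 2 and one of tumor 3 carried the same index tag but held different counts. Sequencing pools named below were inferred from the first part of the index tag, and the labels name no pool.

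Promoters from RefSeq (GRCm38.p6) were found for 6 of the 7 genes, in 7 windows, and not for *Hp*. They are shown for *Saa3*, for *C3* and *Ptx3*, which varied with it between tumors, and for *Lcn2*, which did so less. Each is the 250 bases before the start that RefSeq annotates, read along the gene's strand, 5′ to 3′, and capitals mark matches to the C/EBP motif TTNNGNAA on either strand.
Saa3, chr7:46715677-46715926, minus strand: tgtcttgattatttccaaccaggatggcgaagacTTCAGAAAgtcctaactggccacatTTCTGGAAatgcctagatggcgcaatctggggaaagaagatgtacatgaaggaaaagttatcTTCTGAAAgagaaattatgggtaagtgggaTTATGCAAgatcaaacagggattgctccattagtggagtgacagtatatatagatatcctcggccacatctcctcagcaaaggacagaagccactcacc
C3, chr17:57228137-57228386, minus strand: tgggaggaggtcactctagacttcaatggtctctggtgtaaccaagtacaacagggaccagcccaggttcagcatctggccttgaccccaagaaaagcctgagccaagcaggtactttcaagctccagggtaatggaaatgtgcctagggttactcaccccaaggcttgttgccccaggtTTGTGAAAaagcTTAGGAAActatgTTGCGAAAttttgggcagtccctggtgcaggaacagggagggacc
Ptx3, chr3:66219637-66219886, plus strand: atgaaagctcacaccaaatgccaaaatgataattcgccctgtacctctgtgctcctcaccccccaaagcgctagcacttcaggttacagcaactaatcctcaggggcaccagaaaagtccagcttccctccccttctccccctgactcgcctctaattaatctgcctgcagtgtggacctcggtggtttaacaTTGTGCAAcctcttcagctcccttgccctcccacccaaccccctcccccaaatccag
Lcn2, chr2:32387740-32387989, minus strand: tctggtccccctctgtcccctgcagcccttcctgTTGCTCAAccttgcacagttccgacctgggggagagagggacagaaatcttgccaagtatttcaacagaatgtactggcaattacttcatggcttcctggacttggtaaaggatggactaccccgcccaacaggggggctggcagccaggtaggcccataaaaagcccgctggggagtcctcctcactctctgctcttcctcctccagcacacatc
The *Saa3* window held 4 such places, that of *C3* 3, those of *Ptx3* and *Lcn2* 1 each, and those of *Irak3* and *Socs3* 0. At least 1 place was present in 36.8% of the 32851 promoter windows of the same length, and 3 or more in 2.61%. The nearest places to the start lay 99 to 92 bases before it in *Saa3*, 45 to 38 bases in *C3* and 57 to 50 bases in *Ptx3*, against 216 to 209 bases in *Lcn2*. The STAT motif TTCNNNGAA matched once, in *Socs3*, 154 to 146 bases before the start, and was present in 7.02% of all windows. No window of these genes held the NF-κB consensus, which 7.25% of all windows held. The RefSeq starts of *Saa3*, *Lcn2* and *Socs3*, and that of window 1 of *Irak3*, lie inside the GENCODE genes given above. The whole windows of *Lcn2* and *Socs3*, the latter with its STAT match, and window 1 of *Irak3* do too. Distances therefore hold for the RefSeq starts. These are matches of letters and do not show binding.

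*Saa3* was higher in 4T1 tumors that received either catalase than in their controls, which is how the genes were chosen. In 4T1 given alum, *Saa3* was 78.4, 40.1, 43.6, 50.3 and 103.8 CPM in tumors 1 to 5, and with CAT-ABP + alum it ran from 84.1 to 194.2 CPM (median 131.2). Of the 6 treated tumors, 5 lay above all 5 alum tumors. In 4T1-control tumors *Saa3* ran from 21.03 to 57.9 CPM (median 51.2), and in 4T1-CAT tumors given alum it was 78.5, 112.8, 108.3, 78.2 and 252.8 CPM. All 5 4T1-CAT tumors lay above every 4T1-control tumor, although tumor 5 was far above the other 4. The log2 fold change was 1.12 ± 0.25 (SE) for CAT-ABP in 4T1 and 1.49 ± 0.31 for 4T1-CAT against 4T1-control. Without 4T1-CAT tumor 5 the difference between the lines was 1.07.

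With both catalases, in 4T1-CAT tumors given CAT-ABP + alum, *Saa3* was 141.3, 78.9, 116.5, 69.1 and 90.9 CPM. These 5 tumors again lay above the 6 4T1-control tumors, with a log2 fold change of 1.15 ± 0.24 that shares its controls with the 4T1-CAT comparison. *Saa3* with both catalases was not above its level with 4T1-CAT alone (log2 fold change -0.35 ± 0.30, and 0.08 without tumor 5 of 4T1-CAT with alum), and the ranges overlapped.

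**Figure D1:**
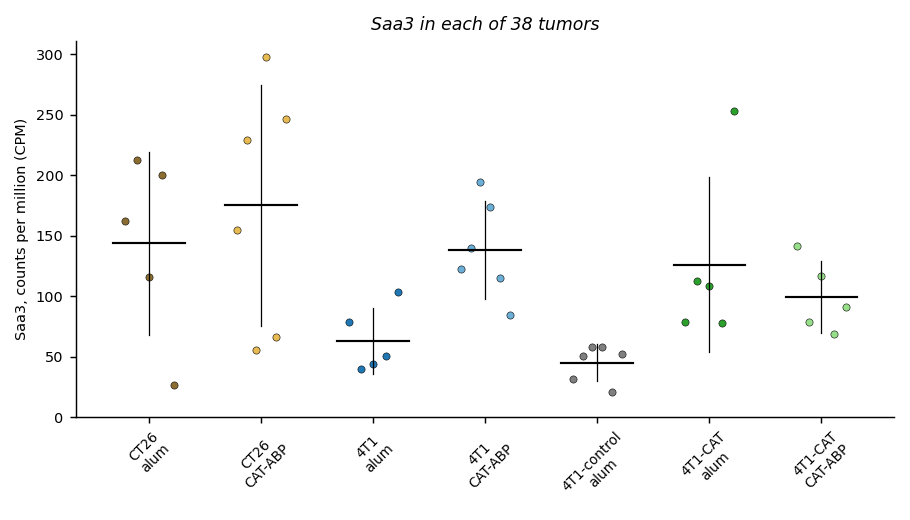
*Saa3* in CPM (y axis, linear) for each of 38 tumors (points) in 7 groups, with the group mean (horizontal bar) and ± 1 SD (vertical line). The 6 4T1-control tumors lie at 57.9 CPM or less, and 4T1-CAT tumor 5 at 252.8 CPM stands apart from its group.

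CT26 tumors had the widest spread of *Saa3*. With alum it was 162.5, 212.6, 116.2, 200 and 26.6 CPM, and with CAT-ABP + alum it ran from 55.4 to 297.4 CPM (median 192.2). In order of the mean, *Saa3* was 175.0 ± 99.7 CPM (SD, n = 6) in CT26 with CAT-ABP, 143.6 ± 75.4 (n = 5) in CT26 with alum, 138.3 ± 40.3 (n = 6) in 4T1 with CAT-ABP, 126.1 ± 72.7 (n = 5) in 4T1-CAT with alum and 99.3 ± 29.4 (n = 5) in 4T1-CAT with CAT-ABP. It was 63.2 ± 27.2 CPM (n = 5) in 4T1 with alum and 45.1 ± 15.2 (n = 6) in 4T1-control. Tumors of every pair of neighbors in this order overlapped, and the only neighbors whose means differed by more than the larger SD were 4T1-CAT with CAT-ABP and 4T1 with alum.

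The other 6 genes did not all follow *Saa3* in these 4T1 comparisons. Beside *Saa3*, *Irak3* was 2.05, 0.865, 1.1, 1.08 and 0.524 CPM in 4T1 with alum and 1.72 to 6.00 CPM (median 2.82) with CAT-ABP, where 5 of 6 tumors lay above all alum tumors (log2 fold change 1.43 ± 0.40). *Ptx3* was 6.85, 1.15, 1.46, 0.840 and 2.36 CPM with alum and 1.53 to 8.96 CPM (median 8.24) with CAT-ABP (1.47 ± 0.52). *Hp* was 50.3, 22.8, 37.6, 31.7 and 124.5 CPM with alum and 54.6 to 136.1 CPM (median 109.5) with CAT-ABP (0.96 ± 0.34). For *Hp* only alum tumor 5 reached into the range of the CAT-ABP tumors, and without it the log2 fold change was 1.55. For *Ptx3* 4 of the 6 CAT-ABP tumors lay above all alum tumors. For *C3*, *Socs3* and *Lcn2* the log2 fold changes were 0.02 ± 0.15, -0.02 ± 0.29 and -0.26 ± 0.29. With the sequencing pool as a block, CAT-ABP in 4T1 gave 1.22 for *Saa3*, 1.52 for *Hp*, 1.06 for *Irak3* and 0.69 for *Ptx3*, and turned *Lcn2* to 0.24, *C3* to -0.18 and *Socs3* to 0.09, where 3 of the 5 alum tumors came from other pools than the CAT-ABP tumors. None of the 7 genes had every CAT-ABP tumor above every alum tumor, a pattern that 0.26% of 13092 genes showed. *Irak3* counts were 2 to 9 reads per tumor in 4T1 with alum, and *Irak3* and *Ptx3* passed the filter on low counts there through the CAT-ABP group.

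In 4T1-CAT against 4T1-control, both with alum, *Hp* was 71.6, 86.1, 121.8, 110.2 and 196.8 CPM against 14.0 to 85.5 CPM (median 66.2), and 4 of 5 4T1-CAT tumors lay above all controls (log2 fold change 1.07 ± 0.36). *Ptx3* was 5.70, 7.03, 2.77, 2.95 and 11.8 CPM against 0 to 4.28 CPM (median 2.70) in the controls (0.97 ± 0.42). *C3* was 53.0, 165.5, 54.8, 64.3 and 189.7 CPM against 30.4 to 117.6 CPM (median 53.9) in the controls (0.75 ± 0.38). For *Socs3* and *Lcn2* the values were 0.45 ± 0.45 and -0.39 ± 0.25, and *Irak3* did not pass the filter. Without 4T1-CAT tumor 5, the highest of its group for every gene but *Lcn2*, *C3* was 0.43, *Ptx3* 0.63 and *Socs3* -0.11, while *Hp* was 0.80. *Saa3* was the only 1 of the 7 whose groups did not overlap, against a background of 0.399% of 12534 genes with every 4T1-CAT tumor higher. With both catalases, *Saa3* and *Socs3* did not overlap with 4T1-control, against a background of 1.3% of 12781 genes. *Socs3* was 5.91, 4.63, 4.17, 4.23 and 7.07 CPM there and 0 to 3.42 CPM (median 2.69) in 4T1-control (0.97 ± 0.31). The 0 came from 4T1-control tumor 2, which had 493086 counts in all, so a count of 0 allows up to 6.58 CPM (3 counts), more than 4 of the 5 tumors with both catalases had. *Ptx3* was also at 0 in that tumor.

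Summed markers of several cell types were also higher with catalase. The summed CPM of 8 adipocyte markers, of which 4 passed the filter and none was at 0 in any group, was 39.0 to 99.9 (median 42.1) in 4T1 with alum and 50.4 to 91.8 (median 80.4) with CAT-ABP. It was 27.5 to 99.0 (median 63.2) in 4T1-control and 92.0 to 216.5 (median 106.3) in 4T1-CAT with alum. The sum of 8 skeletal muscle markers was 177.9 to 670.2 (median 219.4) in 4T1 with alum and 264.6 to 423.0 (median 345.4) with CAT-ABP. It was 172.4 to 515.0 (median 251.0) in 4T1-control and 332.1 to 917.8 (median 504.1) in 4T1-CAT with alum. The sum of 8 T cell markers had a median of 30.8 in both parental 4T1 groups, and of 39.2 in 4T1-control and 81.4 in 4T1-CAT with alum. The neutrophil sum went from a median of 219.0 to 263.7 with CAT-ABP and from 164.4 to 221.9 with 4T1-CAT, and that of 6 erythroid markers from 89.8 to 129.2 and from 83.3 to 136.5, all with overlapping ranges. Fibroblast medians also rose, from 3029 to 3214 and from 3006 to 3543. So did those of B and plasma cells (3.93 to 5.63 and 4.65 to 10.9) and of epidermis (66.6 to 75.7 and 42.4 to 46.5), again with overlapping ranges. The remaining sums were lower or mixed. Epithelial medians went from 2413 to 2224 and from 2147 to 2019, and hepatocyte medians from 72.9 to 47.8 and from 78.9 to 72.3. Macrophage and monocyte medians went from 2393 to 2177 and from 2561 to 2693, and endothelial medians from 149.3 to 140.4 and from 144.7 to 164.1. The part of these cell types in the differences was not tested. In whole tumors, fewer cells of a type and less RNA per cell cannot be told apart.

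**Figure D2:**
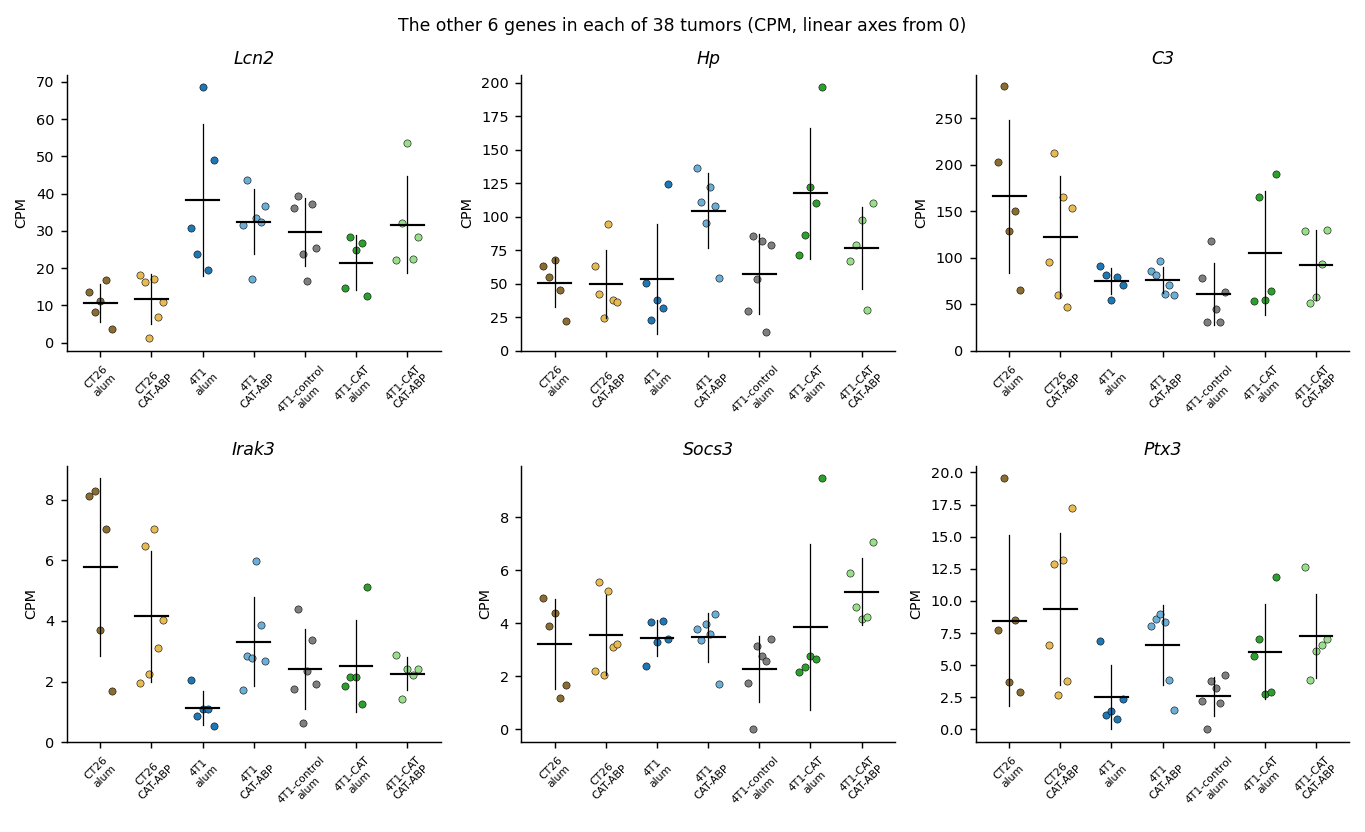
*Lcn2*, *Hp*, *C3*, *Irak3*, *Socs3* and *Ptx3* in CPM (y axes, linear, each with its own scale) for each of 38 tumors (points) in 7 groups, with the group mean (horizontal bar) and ± 1 SD (vertical line). The group means of *Lcn2* are lowest in CT26 (11.8 and 10.7 CPM), and those of *C3* highest there (122.1 and 166.0 CPM).

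The choice of genes did not use CT26, so CAT-ABP + alum against alum in CT26 tests whether extracellular catalase moved them in another tumor line. It did not move any of the 7 past the threshold. *Saa3* had a log2 fold change of 0.29 ± 0.48 (SE, 6 against 5 tumors; unadjusted p = 0.559 and adjusted p = 1.00 by edgeR's quasi-likelihood test), and 3 of 6 CAT-ABP tumors lay above all alum tumors while 2 lay below 4 of the 5. *Ptx3* (0.25 ± 0.52), *Lcn2* (0.13 ± 0.47), *Socs3* (0.13 ± 0.40), *Hp* (-0.05 ± 0.33), *C3* (-0.44 ± 0.39) and *Irak3* (-0.42 ± 0.42) also overlapped between the groups. Across all genes 0% of 12830 were called, 311 had an unadjusted p under 0.05, and DESeq2 called 1.

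CAT-ABP + alum added to 4T1-CAT tumors also called none of the 6 genes tested. *Lcn2* was 22.1, 32.2, 53.6, 22.4 and 28.3 CPM with CAT-ABP and 14.8, 28.5, 24.9, 26.7 and 12.6 CPM with alum (log2 fold change 0.53 ± 0.27, adjusted p = 0.359 by edgeR). *Hp* was 66.8, 78.7, 97.2, 30.2 and 110.4 CPM with CAT-ABP, against the alum values above (-0.62 ± 0.31, adjusted p = 0.361 by edgeR). The values were 0.55 ± 0.39 for *Socs3*, 0.32 ± 0.39 for *Ptx3*, -0.20 ± 0.38 for *C3* and -0.03 ± 0.39 for *Irak3*. Tumors of the groups overlapped for every gene. The background was 0% of 13093 genes called, with 2000 at an unadjusted p under 0.05 and 249 called by DESeq2, which gave adjusted p of 0.201 for *Hp* and 0.792 for *C3* and none for the other 4. The alum group here is also the one in which *Saa3* was chosen as high.

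The difference between the CAT-ABP effects in 4T1-CAT and CT26 was tested as an interaction. It called none of the 6 genes tested (adjusted p between 0.665 and 0.985 by edgeR), with log2 differences from -0.57 ± 0.49 for *Hp* to 0.41 ± 0.58 for *Lcn2*. The background was 0% of 14189 genes called, with 1464 at an unadjusted p under 0.05 and 29 called by DESeq2.

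**Figure D3:**
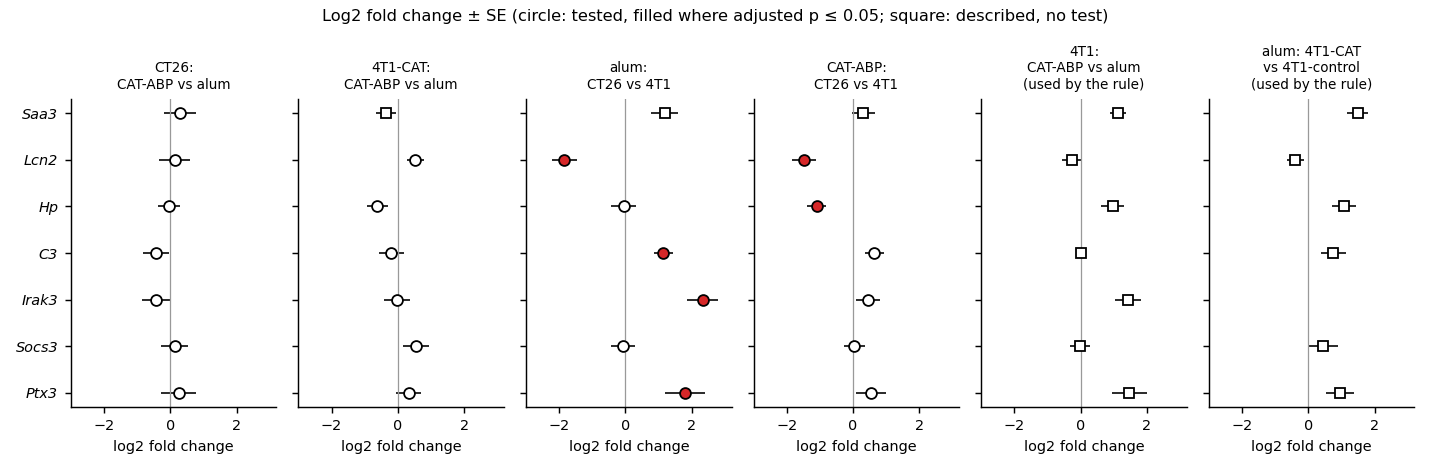
Log2 fold change (x axes) ± SE of the 7 genes in 6 comparisons. Circles were tested, filled where adjusted p was at or under 0.05, and squares are described without a test. *Irak3* has no value in the last panel, and the filled circles lie only in the panels of CT26 against 4T1. With alum, *Irak3* and *Ptx3* passed the filter on low counts through CT26, so their filled circles are not taken as calls.

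Between CT26 and 4T1 tumors given alum, *C3* was called higher and *Lcn2* lower in CT26, and *Hp* and *Socs3* were not called, beside 42.4% of 12817 genes called. *Lcn2* was 13.5, 8.31, 11.1, 16.7 and 3.62 CPM in CT26 and 30.8, 23.9, 68.6, 19.4 and 49.0 CPM in 4T1. The groups did not overlap, and the log2 fold change was -1.84 ± 0.38 (adjusted p = 0.00105 by edgeR). *C3* was 202.4, 283.9, 128.8, 150.1 and 64.8 CPM in CT26 and 91.1, 81.9, 54.0, 78.9 and 70.2 CPM in 4T1, with 4 of 5 CT26 tumors above all 4T1 tumors (1.14 ± 0.29, adjusted p = 0.00542 by edgeR). *Irak3* was 8.13, 8.31, 3.69, 7.05 and 1.69 CPM in CT26, with 4 of 5 tumors above the 4T1 values given above (2.33 ± 0.47). *Ptx3* was 7.74, 19.5, 3.69, 8.52 and 2.90 CPM in CT26, with 3 of 5 above all 4T1 tumors (1.80 ± 0.60). *Irak3* and *Ptx3* passed the filter through CT26, where they are high, as they did not pass it among 4T1-control and 4T1 tumors, so they are described without a call. *Hp* (-0.06 ± 0.39) and *Socs3* (-0.08 ± 0.37) were not called. *Saa3* was 1.18 ± 0.41 higher, given without a test because the alum 4T1 tumors chose it.

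All CT26 tumors and 2 of the 5 4T1 alum tumors shared sequencing pools. With the pool as a block, *C3* (0.93, adjusted p = 0.0996 by edgeR) was no longer called, and *Lcn2* (-1.35, adjusted p = 0.0419 by edgeR) still was. *Irak3* was then 1.96 and *Ptx3* 1.02.

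Among tumors given CAT-ABP + alum, all from the same pools, 2 of 6 genes were called, both lower in CT26, beside 45.5% of 13016 genes. *Lcn2* ran from 1.22 to 18.3 CPM (median 13.6) in CT26 and from 17.1 to 43.6 CPM (median 33.0) in 4T1 (-1.49 ± 0.36, adjusted p = 0.00290 by edgeR). *Hp* ran from 24.2 to 94.2 CPM (median 40.1) in CT26 and from 54.6 to 136.1 CPM in 4T1 (-1.1 ± 0.28, adjusted p = 0.00337 by edgeR). *C3* was 0.64 ± 0.29 (adjusted p = 0.0769 by edgeR), and without CT26 tumor 3 (0.79, adjusted p = 0.0255) or CT26 tumor 5 (0.82, adjusted p = 0.0137) it was called. *Ptx3* (0.54 ± 0.44), *Irak3* (0.46 ± 0.36) and *Socs3* (0.04 ± 0.31) were not. The CAT-ABP 4T1 tumors are those in which *Saa3* was chosen as high, and *Saa3* itself was 0.31 ± 0.34 here. The line comparisons therefore share tumors with the choice of genes.

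The CT26 groups nearly lacked epithelial markers. The summed CPM of 10 epithelial genes was 41.1 to 86.5 in CT26 tumors and 1594 to 2918 in tumors of the 4T1 lines, and *Cldn7* was at 0 in both CT26 groups. The sum of 12 macrophage and monocyte markers, none at 0, was 3807 to 4113 in CT26 and 1830 to 3801 in 4T1 with alum, and 2850 to 4716 and 1627 to 2592 with CAT-ABP. That of 12 neutrophil markers, none at 0 in these groups, was 78.8 to 143.7 in CT26 and 178.7 to 268.9 in 4T1 with alum, and 109.2 to 207.3 and 184.6 to 318.7 with CAT-ABP. T cell markers summed to 109.5 to 223.3 in CT26 and 19.6 to 33.3 in 4T1 with alum, and to 79.2 to 190.9 and 20.4 to 65.3 with CAT-ABP. Those of 7 B and plasma cell markers, of which *Cd79a* was at 0 in these groups, summed to 21.99 to 34.7 and 2.60 to 6.93 with alum. Fibroblast markers were lower in CT26, at a median of 1776 against 3029 with alum. The part of these cell types in the line differences was not tested.

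Genes of the same pathways were compared through 7 lists of 112 genes in all, and the counts of called genes stand beside 42.4% of all genes called between the lines with alum and 45.5% with CAT-ABP. The counts include genes scarce in 1 line, which may have passed the filter on low counts only through the other line. The complement list, which surrounds *C3*, leaned towards CT26. With alum 8 of its 14 genes tested were higher in CT26 (median log2 fold change 0.97, beside 0.02 over all genes), and with CAT-ABP 10 of 15 were higher (median 0.73, beside -0.02). Over all genes, 2727 of 12817 were called higher in CT26 with alum and 2840 of 13016 with CAT-ABP. *C1s1*, a serine protease of the classical pathway, was 139.2 ± 28.2 CPM (SD, n = 5) in CT26 and 8.10 ± 1.91 CPM (n = 5) in 4T1 with alum (log2 fold change 4.11 ± 0.20, adjusted p = 6.78e-10 by edgeR). Its partner *C1ra* (2.97 ± 0.19), *Cfb*, the protease subunit of the alternative pathway convertase (2.47 ± 0.28), and *C4b* (2.19 ± 0.24) were also higher. The complement inhibitor *Cd55* was 10.4 ± 3.67 CPM in CT26 and 1.29 ± 0.936 CPM in 4T1 (2.96 ± 0.44). Being scarce in 4T1, *Cd55* may have passed the filter only through CT26, so its call is set aside, though the 8 include it. *Cfd*, a protease of the alternative pathway, was 6.48 ± 5.49 CPM in CT26 and 20.1 ± 6.83 CPM in 4T1 with CAT-ABP (-1.68 ± 0.45). With so wide a spread in CT26, *Cfd* may have passed the filter only through 4T1, and its call is set aside too. *Cfp*, properdin, which stabilizes the convertase of that pathway, and *Cr1l*, a membrane regulator of complement, were higher in CT26 with CAT-ABP (0.84 ± 0.14 and 0.64 ± 0.14).

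Of 11 receptors of the proteins tested with alum 7 were higher and 1 lower in CT26 (median 1.08, beside 0.02 over all genes), and of 10 with CAT-ABP 7 were higher and 1 lower (median 0.77, beside -0.02). *Fpr2*, a receptor for serum amyloid A, was 27.3 ± 14.1 CPM in CT26 and 2.93 ± 0.924 CPM in 4T1 with alum (3.14 ± 0.34). *C3ar1*, the C3a receptor, was higher by 1.21 ± 0.15, *Itgb2*, a chain of receptors for cleaved C3, by 1.22 ± 0.24, and *Cd36*, a scavenger receptor, by 1.78 ± 0.26. *Fpr1* was 9.16 ± 4.72 CPM in CT26 and 1.64 ± 0.547 CPM in 4T1 (2.42 ± 0.42). Being scarce in 4T1, *Fpr2* and *Fpr1* may have passed the filter only through CT26, so their calls are set aside, though the counts include them. *Itgax*, another integrin chain, was 5.91 ± 4.01 CPM in CT26 and 12.7 ± 1.70 CPM in 4T1 with alum (-1.18 ± 0.36). With so wide a spread in CT26, *Itgax* may have passed the filter only through 4T1, and its call is set aside too. With CAT-ABP *Itgam* was higher by 0.96 ± 0.18 and *C5ar1*, the C5a receptor, by 0.51 ± 0.17.

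The other acute-phase and defense proteins split. Of 13 tested with alum 4 were higher and 3 lower, and of 14 with CAT-ABP 4 were higher and 4 lower (33 genes were listed, and the rest were too low to test). The metallothioneins *Mt1* and *Mt2* were higher in CT26 (2.42 ± 0.35 and 3.45 ± 0.37 with alum), as was the protease inhibitor *Serpina3g* (2.80 ± 0.29). *Tnfaip6* was 7.82 ± 2.36 CPM in CT26 and 3.59 ± 1.84 CPM in 4T1 with alum (1.04 ± 0.36). Being scarce in 4T1, *Tnfaip6* may have passed the filter there only through CT26, so this call is set aside, though the counts include it. *Slpi*, a leukocyte protease inhibitor of epithelial surfaces, was 35.1 ± 14.2 CPM in CT26 and 497.2 ± 207.7 CPM in 4T1 with alum (-3.84 ± 0.34, adjusted p = 3.10e-07 by edgeR), and ceruloplasmin, *Cp* (-1.28 ± 0.21), and the lectin *Reg3g* (-2.58 ± 0.50) were lower with it. Hemopexin, *Hpx*, was 0.778 ± 1.03 CPM in CT26 and 3.95 ± 3.47 CPM in 4T1 with CAT-ABP (-2.06 ± 0.66). *Reg3g* was 1.75 ± 1.65 CPM in CT26 and 11.8 ± 5.97 CPM in 4T1 with alum. Being scarce in CT26, both may have passed the filter there only through 4T1. Those calls are set aside, though the counts include them.

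Cytokines and their signaling genes differed in both directions. Of 7 cytokine ligands tested, *Lif* (-1.22 ± 0.30) and *Il1a* (-1.81 ± 0.56) were lower in CT26 with alum, and *Lif* (-1.72 ± 0.26), *Il1a* (-2.19 ± 0.53) and *Clcf1* (-1.11 ± 0.31) with CAT-ABP, and none was higher. *Il1a* was 1.46 ± 1.99 CPM in CT26 and 5.02 ± 1.52 CPM in 4T1 with alum, and 1.395 ± 1.398 and 6.09 ± 1.30 CPM with CAT-ABP. With CAT-ABP *Clcf1* was 3.271 ± 1.426 CPM in CT26 and 6.765 ± 2.623 CPM in 4T1, and *Lif* was 3.659 ± 1.465 and 12.01 ± 2.49 CPM. Being scarce in CT26, *Il1a* in both comparisons, and *Clcf1* and *Lif* with CAT-ABP, may have passed the filter only through 4T1. Those calls are set aside. Of 20 receptors and adaptors 2 were higher and 6 lower with alum, and 2 higher and 5 lower with CAT-ABP, both under the share called over all genes. *Jak2* (-1.26 ± 0.19), *Tyk2* (-1.16 ± 0.12) and *Osmr*, the oncostatin M receptor (-1.63 ± 0.34), were lower in CT26 with alum, and *Tlr4*, the lipopolysaccharide receptor (0.97 ± 0.21), was higher. *Cd14*, its co-receptor, was higher with CAT-ABP (1.42 ± 0.16). Of 9 transcription factors 3 were higher and 1 lower with alum, and 2 higher and 3 lower with CAT-ABP. *Cebpd* was higher in both (1.02 ± 0.21 and 1.00 ± 0.31), and *Stat3* lower with CAT-ABP (-0.45 ± 0.18). Genes of the NF-κB family went both ways. *Nfkbiz* was higher in both (0.74 ± 0.28 and 0.79 ± 0.20) and *Nfkb2* with alum (0.65 ± 0.25). *Nfkb1* was lower in both (-0.48 ± 0.18 and -0.43 ± 0.13) and *Rela* with CAT-ABP (-0.43 ± 0.16). Of 10 feedback inhibitors *Socs1* was higher in both (1.93 ± 0.59 and 1.40 ± 0.38) and *Il1rn*, the interleukin-1 receptor antagonist, with alum (1.1 ± 0.24), and none was lower. *Socs1* was scarce in 4T1 (2.17 ± 1.14 CPM with alum and 2.58 ± 1.36 CPM with CAT-ABP). It may have passed the filter only through CT26, so its calls are set aside.

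None of the 7 lists had a called gene in the CAT-ABP comparisons within CT26 and 4T1-CAT, in their difference, or between 4T1-control and 4T1. In the last, which tests the engineered GFP line on doxycycline against its parent, 0% of 12431 genes were called (1307 at an unadjusted p under 0.05, 16 by DESeq2). *Lcn2* (-0.45 ± 0.29), *Socs3* (-0.40 ± 0.34), *C3* (-0.27 ± 0.26) and *Hp* (0.05 ± 0.42) were not called, *Saa3* was -0.50 ± 0.27 without a test, and *Irak3* and *Ptx3* did not pass the filter.

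Within groups, *Saa3* varied from tumor to tumor with some of the 7 genes and not with others. After the group means were subtracted from log2 CPM, the Pearson correlation over 38 tumors was 0.70 with *Hp*, 0.69 with *C3*, 0.64 with *Ptx3*, 0.54 with *Irak3*, 0.41 with *Lcn2* and 0.32 with *Socs3*. *Saa3* with *Hp*, *C3* and *Ptx3*, and *C3* with *Ptx3* (0.71), were positive in all 7 groups. *Hp* varied less with *C3* (0.27) and *Ptx3* (0.26) than *Saa3* did. *Lcn2* stood apart, with correlations between -0.07 and 0.41. Its correlation with *Saa3* was 0.82 and 0.86 in the CT26 groups and between -0.65 and 0.23 in the 5 groups of the 4T1 lines. Over the 21 pairs the correlations ran from -0.07 to 0.71 (median 0.30). Without the 2 shallowest tumors *Socs3* with *Saa3* was 0.49, *Ptx3* with *Saa3* 0.78 and *Irak3* with *Ptx3* 0.53 in place of 0.30. These are descriptions over tumors that share libraries and scaling.

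**Figure D4:**
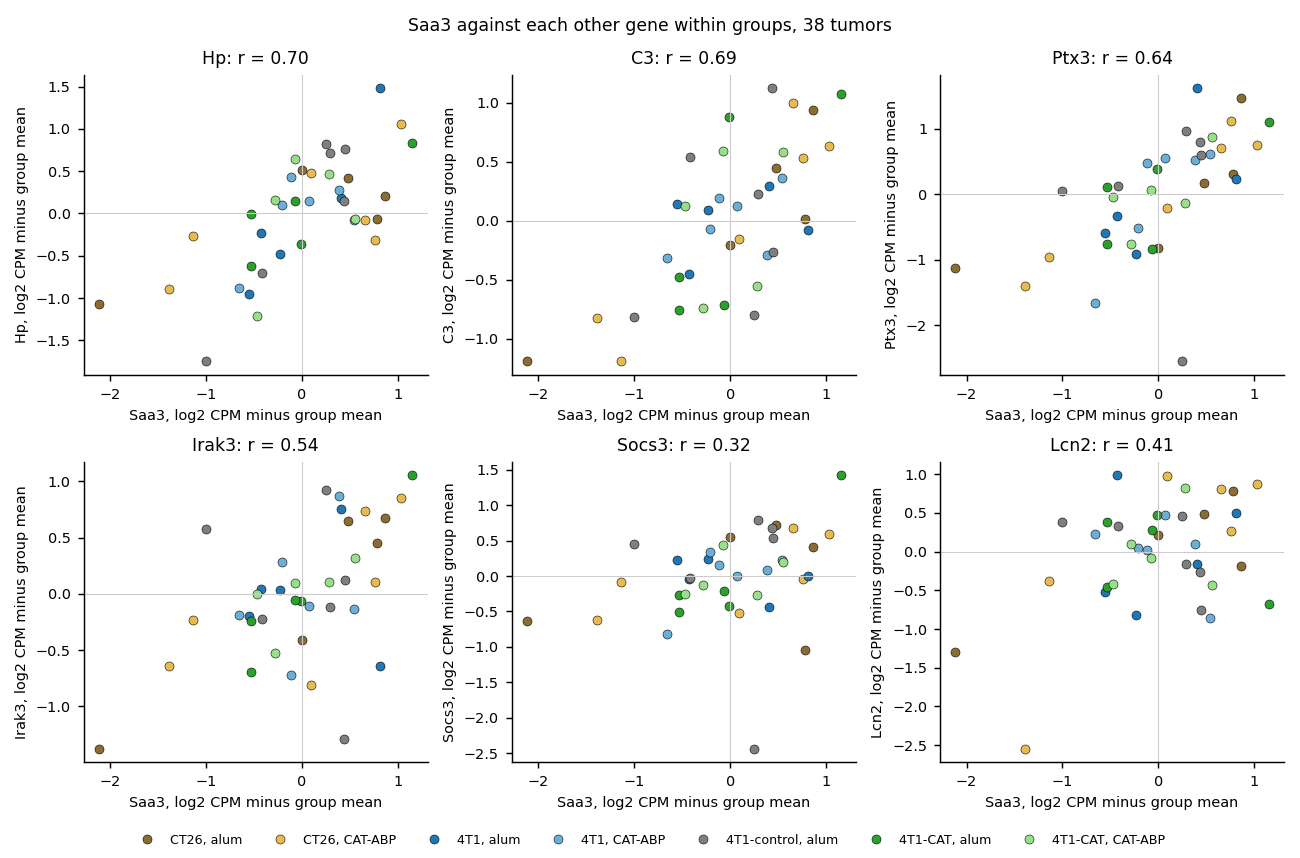
*Saa3* (x axes) against each of the other 6 genes (y axes), as log2 CPM minus the group mean, for 38 tumors colored by group. Points of *Hp*, *C3* and *Ptx3* climb with *Saa3* (r of 0.70, 0.69 and 0.64), and 4T1-control tumor 2, without a count of *Socs3* or *Ptx3*, lies far below the rest in those panels.

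Among 11276 genes with a mean of at least 20 counts per tumor, those most like *Saa3* within groups were *Il1rn* (r = 0.85), *Gpr171* (0.85), *Cxcl5*, a neutrophil chemokine (0.83), *Serping1*, the C1 inhibitor (0.81), and *Il1b* (0.80). Those most like *C3* were *Emilin2* (0.90), *Bhlhe40* (0.89) and *Rnf19b* (0.87). For *Ptx3* they were *S1pr3* (0.83), *Lox*, which cross-links collagen (0.82), and *Fstl1* (0.81). For *Hp* they were *Mup14* (0.77), a member of a family of near-identical genes whose reads are uncertain, *Apoc1* (0.76) and *Cfd*, the adipocyte product adipsin (0.76). For *Lcn2* they were *Abcc3* (0.67), *Slpi* (0.59) and *Dmxl2* (0.56), for *Irak3* *Itgam* (0.69), *Gm12840* (0.66) and *Gm48275* (0.65), and for *Socs3* *C4b* (0.84), *Cd244a* (0.82) and *Diaph1* (0.82).

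Against summed markers of 12 cell types the genes also parted. *C3* varied most with neutrophil markers (r = 0.85), as did *Ptx3* (0.72), *Saa3* varied with neutrophil (0.67) and T cell (0.64) markers, and *Hp* with adipocyte markers (0.76). *Mmp9*, at a mean of 80.1 CPM over all tumors, was the largest part of the neutrophil sum, and *Ly6g*, at 0.227 CPM, did not pass the filter. *Fabp4*, at 57.4 CPM, was the largest part of the adipocyte sum, while *Adipoq* was at 2.18 CPM. *Hp* and the adipocyte sum were both highest in tumor 5 of the 4T1 alum group (124.5 CPM of *Hp* and a sum of 99.9) and in tumor 5 of the 4T1-CAT alum group (196.8 CPM and a sum of 216.5). *Saa3* was also at 0.58 with fibroblast and -0.07 with macrophage and monocyte markers. *Lcn2* was lowest against epithelial markers (-0.52) and at 0.17 against neutrophil markers. Of 9 hepatocyte markers, *Ttr* was at 0 in every tumor, *Alb* had a mean of 0.387 CPM and only *Trf*, which other cells also make, passed the filter, at a mean of 51.5 CPM.

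**Figure D5:**
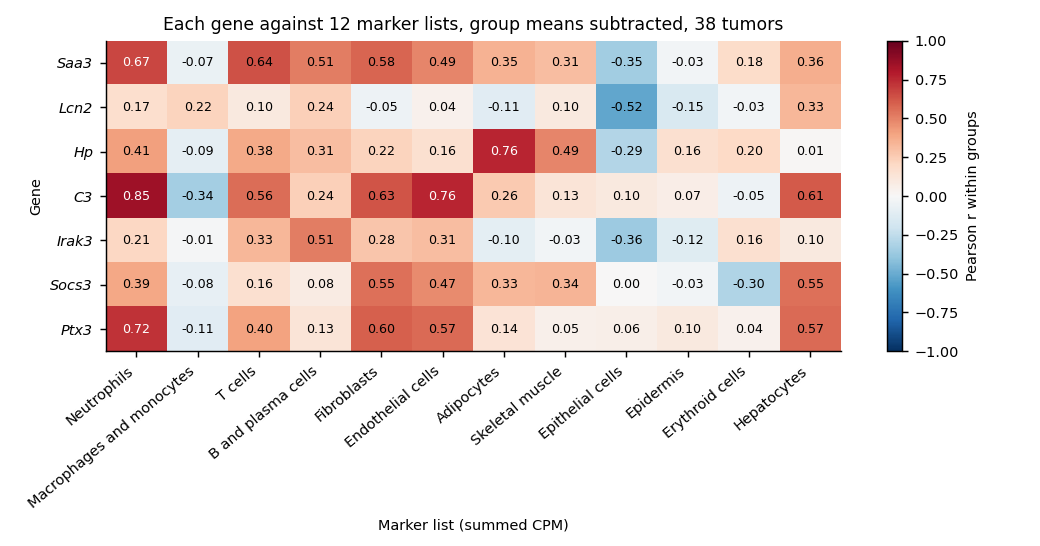
Pearson correlation (color and number) of each of the 7 genes (rows) with the summed CPM of 12 marker lists (columns) over 38 tumors, after subtraction of group means. *C3* with neutrophil markers (0.85) and *Hp* with adipocyte markers (0.76) are among the highest values.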

How the data were processed

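Whole-tumor RNA from 38 mouse tumors was sequenced as 3′ digital gene expression libraries, 76 in all, with 2 technical libraries per tumor. The libraries fell into 4 sets by the first part of the index tag. These sets were taken as sequencing pools, although the labels name no pool. The authors processed the reads with a Smart-seq2 pipeline and deposited estimated counts per gene, not normalized, with GENCODE M21 (GRCm38) identifiers. A share of 39.7% of the values above 0 held decimals. Technical libraries were summed per tumor and rounded. All were kept, although the authors left out some of low depth that are not named in the sources used here.

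Groups came from the labels. Genes passing filterByExpr were tested in the groups compared by edgeR 4.0.16's quasi-likelihood test (R 4.3.3) with TMM scaling and Benjamini-Hochberg adjustment over all genes tested, called at 0.05. Fold changes are log2, with SE as the absolute change over the square root of F. CPM is a tumor's counts per 1e6 of its TMM-scaled total. Labels give the tumors as separate samples, and p-values measure the spread between them. *Saa3* has a p-value only in CT26, and 3 comparisons that bear on the choice of genes have none. The members and lists were chosen with earlier results of these data known. All 7 members are named, with up to 5 called genes per direction and list, the 5 genes most like *Saa3* and the 3 most like each other member. Correlations used log2 CPM with a prior count of 2, over 38 tumors. The fits were tested on simulated data. For the complement list, 1 gene's result is not reported here.

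Alternatives were DESeq2 1.42.0, the tool the authors used, other scaling, filters, 1 model over all groups, blocks by replicate number or sequencing pool, each technical library alone, omission of shallow libraries or of each tumor, and, chosen after seeing the data, omission of the 2 libraries with the same index tag. Samples sharing a replicate number did not deviate together consistently (correlations from -0.458 to 0.464, in both directions), so the numbers were not taken as pairs.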

Additional observations from a re-analysis of the deposited data

Results flagged for a closer look

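In 5 of 49 gene-by-group sets of 5 or 6 tumors, the highest tumor lay farther from its neighbor than Dixon's 95% limit allows, where chance flags about 1 in 20, or 2.5 here. Tumor 5 of 4T1-CAT with alum accounted for 3 of them. *Saa3* was 252.8 CPM there and at most 112.8 CPM in the other 4 tumors, *Socs3* was 9.47 CPM against at most 2.77, and *Irak3* was 5.13 CPM against at most 2.15. Marker sums of that tumor were 216.5 for adipocytes (92.0 to 117.9 in the other 4), 6329 for fibroblasts (3092 to 3948), 118.3 for T cells (37.2 to 87.4) and 917.8 for skeletal muscle (332.1 to 573.9), and their part was not tested. In 4T1 with alum, *Hp* was 124.5 CPM in tumor 5 and at most 50.3 in the others, beside an adipocyte sum of 99.9 (39.0 to 43.9 in the others) and a skeletal muscle sum of 670.2 (177.9 to 342.5). *Ptx3* was 6.85 CPM in tumor 1 of that group and at most 2.36 in the others.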

How the results depend on the processing

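Of 437 fits of tested log2 fold changes with 1 tumor left out, 35 changed sign and 6 changed a call, and of 315 under the other alternatives 12 and 3. The changed calls include fits of *Ptx3* between the lines with alum, which is described above without a call. Among the comparisons described without a test, 12 of 282 and 5 of 222 changed sign, of which *Lcn2* (0.24), *C3* (-0.18) and *Socs3* (0.09) did so for CAT-ABP in 4T1 with the pool as a block. DESeq2 called 1 gene for CAT-ABP in CT26, 249 for CAT-ABP in 4T1-CAT, 16 between 4T1-control and 4T1 and 29 for the difference of the CAT-ABP effects, where edgeR called none, and without a filter on low counts edgeR called 1, 47, 130 and 5. Between 4T1-control and 4T1, 1 model over all groups called 10 and omission of shallow libraries 14. Technical library 2 alone called 2849 genes between the lines with alum and 3559 with CAT-ABP, in place of 5434 and 5928. With a replicate block, CAT-ABP in 4T1-CAT gave 3 calls, *Ptx3* for CAT-ABP in CT26 turned to -0.08, *Hp* between the lines with alum to 0.16 and *Socs3* between the lines with CAT-ABP to -0.07, and the numbers do not show pairing. With the sequencing pool as a block, *Hp* turned to 0.49 and *Socs3* to 0.02 between the lines with alum, *Hp* to -0.21 between 4T1-control and 4T1, and *C3* (0.93) lost its call between the lines with alum. *Ptx3*, described without a call there because it passed the filter through CT26, was then 1.02. *Hp* turned to 0.02 for CAT-ABP in CT26 with technical library 1 alone, to 0.04 between the lines with alum with library 2 alone, and to -0.07 between 4T1-control and 4T1 without shallow libraries. In the difference of effects, *C3* turned to -0.03 with library 2 alone, *Irak3* to -0.10 with library 1 alone, and *Ptx3* to -0.08 without the 2 libraries that share a tag. *C3* was called between the lines with CAT-ABP without a filter (0.64). None of the values that turned was called, and the cause was not tested.

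With 1 tumor left out, the calls ran from 0 to 0 genes for CAT-ABP in CT26, 0 to 1 in 4T1-CAT, 4823 to 5718 between the lines with alum, 5396 to 6421 with CAT-ABP, 0 to 6 between 4T1-control and 4T1 and 0 to 5 for the difference. For CAT-ABP in CT26, *Lcn2* ran from -0.10 to 0.37, *Hp* from -0.33 to 0.10 and *Socs3* from -0.07 to 0.35. For CAT-ABP in 4T1-CAT, *C3* ran from -0.38 to 0.12 and *Irak3* from -0.23 to 0.33. Between the lines *Hp* ran from -0.25 to 0.52 and *Socs3* from -0.29 to 0.11 with alum, and *Socs3* from -0.14 to 0.18 with CAT-ABP. *Hp* ran from -0.11 to 0.64 between 4T1-control and 4T1, and in the difference *C3* ran from -0.02 to 0.56 and *Ptx3* from -0.41 to 0.38. The pool could not be a block where the tumors compared shared their pools, or, for the difference of effects, where pools and lines coincided. Few counts limit *Irak3*, *Socs3* and *Ptx3*.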
